A study of Mus musculus with 15 samples.

Results

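The genes described here are the 76 genes of the cytosolic ribosomal proteins, the protein parts of the ribosome that translates messages outside the mitochondrion, in hematopoietic stem cells (HSCs) sorted from the bone marrow of mice. They were chosen by symbol, as every gene named Rpl or Rps with a number and an optional a or x, together with Rplp0, Rplp1, Rplp2 and Rpsa, and with a mean of at least 1 FPKM over all libraries. FPKM is a read count scaled to gene length and library size. All 76 genes that match the symbols passed that limit, of 20696 genes in the table and 11345 genes tested. Rpl24 was nearest to it, at a mean of 1.33 FPKM, and no matching gene lay below it. They encode 46 proteins of the large subunit, the 3 stalk proteins included, and 30 of the small subunit. The pattern leaves out Rps3a1, the fusion gene Fau, Rack1, and relatives such as Rps4l, which are given as a separate list.

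RNA was measured in 15 bulk libraries, 5 in each of 3 groups: control mice of 3 months (young control), control mice of 18 months (aged control), and mice of 18 months labelled aged Thbs1 knockout (the knockout-labelled libraries). Thbs1 encodes thrombospondin 1, a secreted matrix protein, and its knockout is the only allele the labels give. The labels state no strain, no clone and no pooling, and do not tie samples to single animals. The p-values therefore rest on the spread between samples, some of which may be technical. The design sets aged against young HSCs and then aged HSCs with the knockout against aged controls.

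3 facts about the libraries bear on every result. Thbs1 was 4.24 ± 5.28 FPKM in young controls, 2.90 ± 3.84 in aged controls and 10.4 ± 7.84 in the knockout-labelled libraries (SD, n = 5 each). Its RNA level does not bear that label out, so those samples are named by the label throughout. Why the level was not lower there was not tested. The table carries a title and a library name for each column, and the sample descriptions pair these differently: the 2 names lead to 1 sample in 5 columns and to different samples in 10. Columns were grouped by title. The other pairing was compared for the family's counts and medians and for 67 results on single genes, and those that turned round are given in the closing section. Of 24 calls among these single-gene results, all of genes outside the family, 0 passed the test under the other pairing (adjusted p 0.32 to 0.998). Under that pairing 0.0, 0.0 and 0.13% of all tested genes were called with age, with the knockout label and against young controls. The 0 of 24 is therefore near the share of all genes. Other values below, such as the call of the erythroid gene Hbb-bt, were not compared in this way. The library names also give a sex: replicates 1 and 2 of the young controls, 1 to 3 of the aged controls, and 1 and 2 of the knockout-labelled libraries are male and the rest female, so sex goes with replicate number except at replicate 3. By this sex, Thbs1 was 0.01 to 2.53 FPKM in male and 2.42 to 17.9 FPKM in female libraries. In the knockout-labelled libraries it was 2.53 and 1.69 FPKM in the males and 12.7 to 17.9 FPKM in the females. Under the other pairing, the young controls are all male, the knockout-labelled libraries all female and the aged controls mixed. There the knockout label against young controls cannot be told apart from sex, and the other 2 comparisons are unbalanced in sex. The library sizes recovered from the values were 17.1e6 to 29.5e6 reads. All 11 tested HSC markers were detected in every library, among them Procr at 43.3 to 133 FPKM.

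Ribosomal proteins are needed in equal numbers, 1 of each in a ribosome except for the stalk, and their messages are among the most abundant in most cells. Most of them start with a cytosine followed by a run of pyrimidines, the 5′ terminal oligopyrimidine (TOP) tract, through which the kinase complex mTORC1 and the RNA-binding protein Larp1 set their translation as a group. HSCs are known for a low rate of protein synthesis, and loss of 1 copy of several of these genes causes Diamond-Blackfan anemia, a failure of red cell production. Free Rpl5 and Rpl11, which travel with the 5S rRNA, bind Mdm2 and so link ribosome assembly to p53.

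Many of the start sites show a pyrimidine tract. RefSeq promoters on GRCm38.p6 were matched for 56 of the 76 genes, and the 40 bases from 20 before the annotated start to the 20th base from it are shown for 6 genes that the results below turn on, 5 with a pyrimidine tract and 1 without. Capitals mark runs of at least 7 C or T.
Rpl4, chr9:64173367-64173406, plus strand: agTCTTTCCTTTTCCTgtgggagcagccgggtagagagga
Rpl5, chr5:107900508-107900547, plus strand: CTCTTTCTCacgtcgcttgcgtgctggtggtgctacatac
Rplp2, chr7:141447631-141447670, plus strand: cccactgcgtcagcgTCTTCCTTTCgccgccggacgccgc
Rps12, chr10:23787190-23787229, minus strand: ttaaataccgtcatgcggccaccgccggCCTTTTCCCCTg
Rps27, chr3:90213629-90213668, minus strand: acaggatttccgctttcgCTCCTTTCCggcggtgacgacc
Rpl27, chr11:101442225-101442264, plus strand: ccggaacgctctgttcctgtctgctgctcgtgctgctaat
The tract lies across the annotated start in Rplp2 and Rps27, before it in Rpl4 and Rpl5, and after it in Rps12. A run of at least 7 C or T within these 40 bases was found in 35 of the 56 genes (62.5%), against 27.5% of all 27025 genes in the promoter table. The letters CTTTC stood in the same 40 bases of 18 members (32.1%), against 6.4% of all genes, and some of these lie inside such a run. The letters CCGGAAG, the core bound by ETS factors, occurred on either strand of the 300-base promoter (250 before to 50 after the start) in 23 members (41.1%), against 9.9% of all genes. TATAAA on the sense strand was found in 5 members (8.9%), close to the 9.8% of all genes, and AAGATGGC on either strand in 5 (8.9%), against 3.2%. Each match is a description of these letters in these windows.

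The family was among the most abundant of these cells. Its median member had a mean of 360.9 FPKM over the 15 libraries, against 8.38 FPKM for the median of all tested genes, and 35 of the 100 genes with the highest mean were members. Among the highest were Rpl36 at 1607 FPKM, the stalk protein Rplp1 at 1477, the stalk base Rplp0 at 1392 and Rps14 at 1361. In all, 69 members had a mean above 100 FPKM. The lowest were Rps15a at 75.0 FPKM, Rpl23a at 29.5, Rpl13a at 10.2 and Rpl24 at 1.33, with Rpl35a next at 87.9.

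The lowest members, Rpl24, Rpl13a and Rpl23a, have overlapping gene models, but level and overlap did not go together throughout. Rps15a and Rpl35a, the next lowest, have no overlap. Rpl35, with 66.2% of its exon length covered by antisense genes, had a mean of 169.5 FPKM. Same-strand genes share 47.0% of the exon length of Rpl24 and 35.4% of that of Rpl13a, and an antisense gene covers 59.7% of Rpl23a. The recovered library sizes put only 13 to 60 reads behind Rpl24 in a library, 319 to 944 behind Rpl13a and 283 to 1203 behind Rpl23a, while every other member had at least 2529. Whether overlap lowers these values was not tested, since how the authors assigned shared reads, and whether by strand, is not given in the sources used here. In all, 9 members share at least 10% of their exons with a same-strand gene and 6 share at least 20% with an antisense gene. Across the 76 members the FPKM level was lower where the exon model was longer (Spearman's rho = -0.48 over genes that share the same libraries). FPKM is itself scaled to gene length, so level and length are not independent.

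The summed level of the 76 genes varied widely among libraries of the same group. In young controls it was 21792, 30231, 28109, 28024 and 21252 FPKM in replicates 1 to 5. In aged controls the 5 sums were 35541, 39243, 40930, 25015 and 27294 FPKM. In the knockout-labelled libraries they were 41118, 63339, 28198, 29030 and 73710 FPKM. The first 3 aged controls stood above every young control while the other two stood among them, and among the knockout-labelled libraries replicates 2 and 5 stood above all others and replicates 3 and 4 among the young controls. In these bulk samples, more cells of a type and more RNA per cell cannot be told apart.

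As a share of all FPKM, the family held 6.27 to 7.33% in young controls, while it held 7.24 to 8.56% in the aged ones and 8.05 to 12.4% where the knockout was labelled. On this scale the young controls and the knockout-labelled libraries did not overlap. As a share of the FPKM of protein-coding genes it was 7.89 to 10.4%, 9.13 to 12.6% and 10.2 to 19.6%, and here all 3 groups overlapped. The second scale leaves out all genes that are not protein-coding, among them Gm23935, a gene model annotated as a miRNA of 57 bases, which took up to 247056 FPKM in a single library. Its level went with the family: 177587 and 247056 FPKM in replicates 5 and 2 of the knockout-labelled libraries, and 47985 to 128182 FPKM in the other 13 libraries. It stood at 86525, 114414 and 128182 FPKM in the first 3 aged controls and at 56116 and 47985 FPKM in the other two. Mitochondrially encoded genes, as a share of length-weighted FPKM, made up 1.64% of replicate 2 of the knockout-labelled libraries and 0.24 to 0.83% of the other libraries. The part of these differences between libraries in the family's level was not tested.

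**Figure D1:**
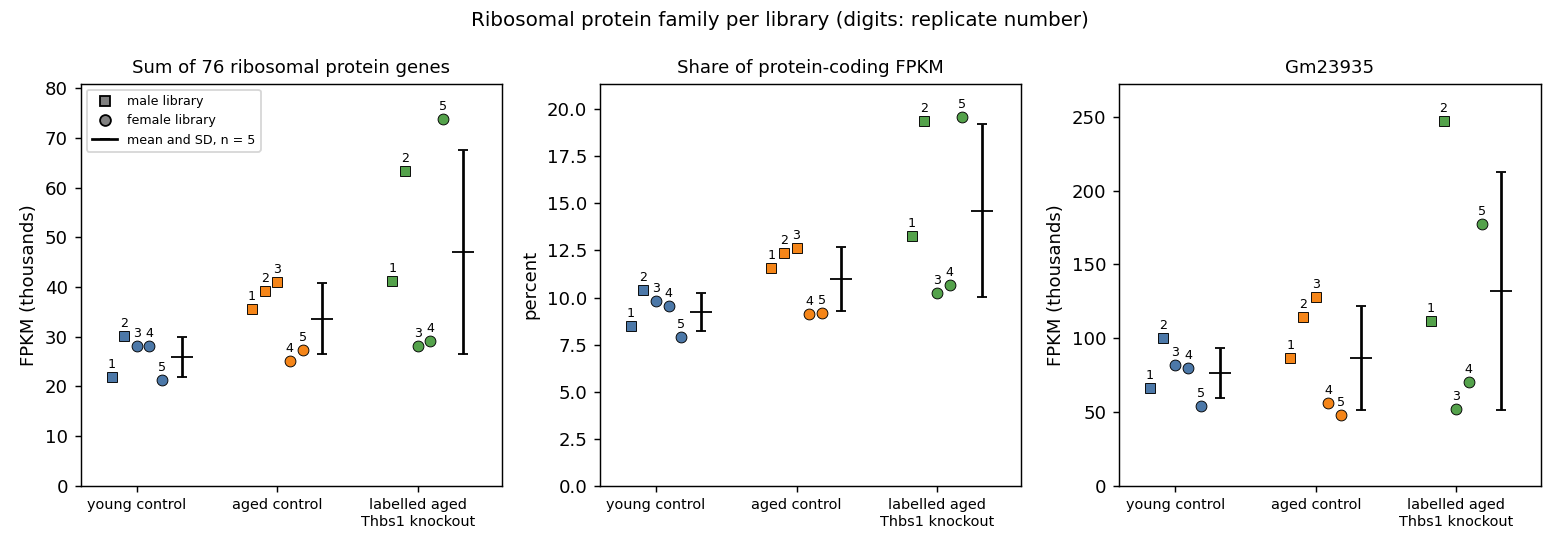
Summed FPKM of the 76 ribosomal protein genes (left), their percent of the FPKM of protein-coding genes (middle) and the FPKM of Gm23935 (right) in each library, by group, with squares for male and circles for female libraries, digits for the replicate number, and the mean and SD of 5 libraries. Replicates 2 and 5 of the knockout-labelled libraries stand highest in all 3 panels, and aged controls 1 to 3 stand above aged controls 4 and 5.

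The members varied almost as 1 quantity across libraries. Over the 2850 pairs of members, the median Pearson correlation of log2(FPKM + 1) across the 15 libraries was 0.98, and 72 of the 76 correlated above 0.95 with the mean of the family. Those 4 below it were Rpl4 at 0.49, Rpl24 at 0.64, Rpl5 at 0.80 and Rpl13a at 0.90, of which Rpl24 and Rpl13a are the 2 members with the lowest FPKM. All 76 were higher in replicates 2 and 5 of the knockout-labelled libraries than in each of the other 13 libraries, a pattern shown by 9.98% of all tested genes. Aged controls 1 to 3 all stood above aged controls 4 and 5 in 72 of 76 members, against 27.2% of tested genes. Young control replicate 5 was the lowest of the 15 libraries for 50 members and young control replicate 1 for 21, against 5.68 and 10.01% of tested genes. These correlations describe libraries that share group, sex and preparation, and carry no test.

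**Figure D2:**
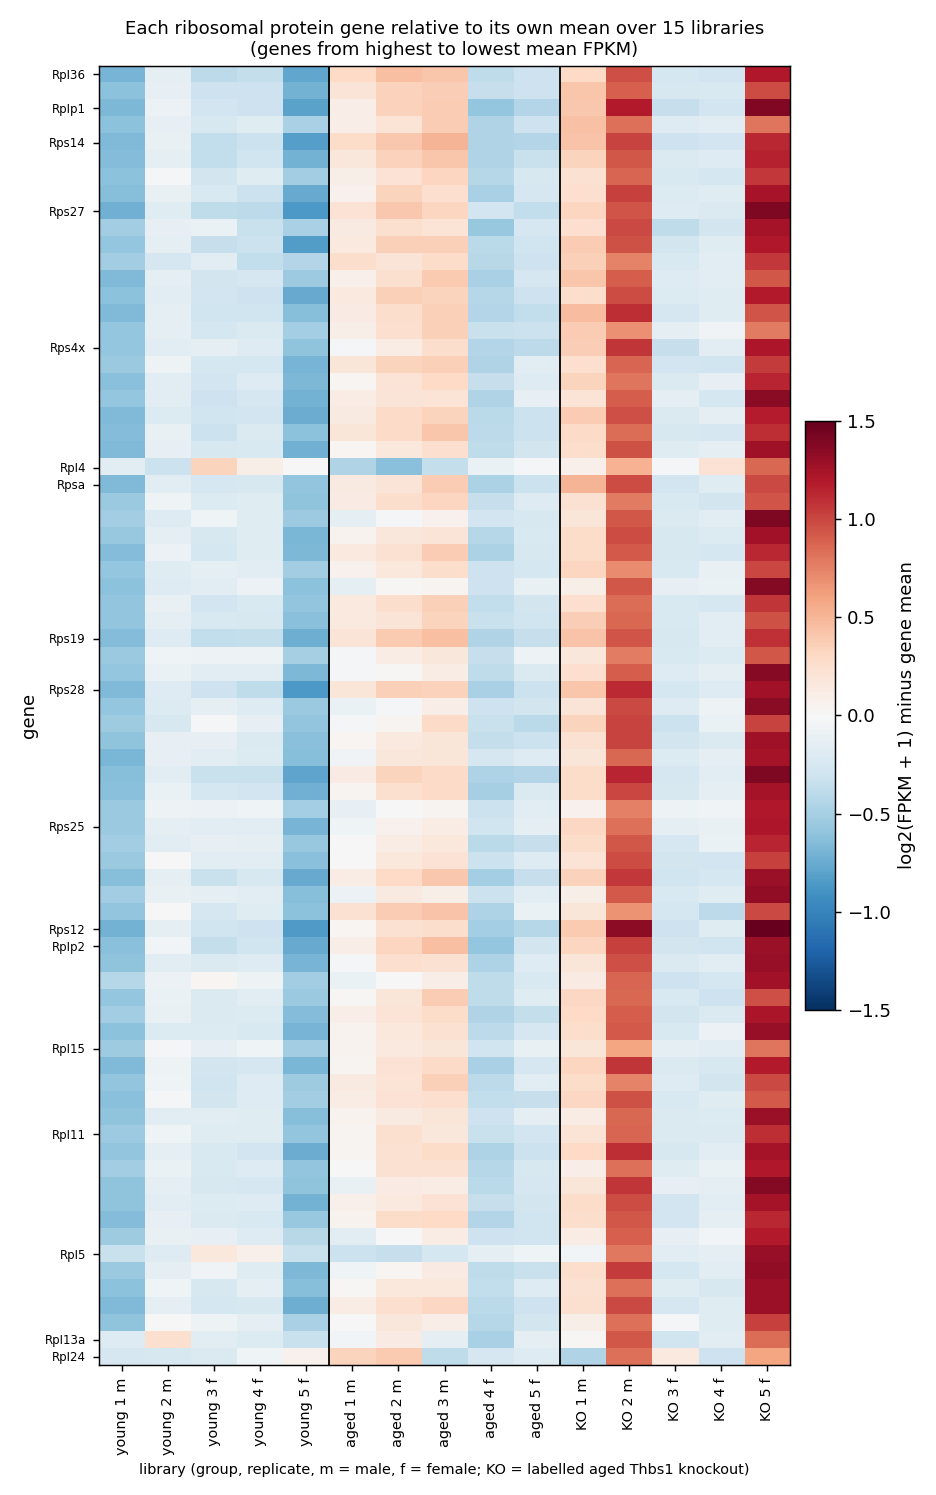
Heat map of the 76 members (rows, from highest to lowest mean FPKM, some of them labelled) in the 15 libraries (columns), with color for log2(FPKM + 1) minus the gene's own mean over all libraries. Whole columns share 1 color, reddest in knockout-labelled replicates 5 and 2, and Rpl4, Rpl5, Rpl13a and Rpl24 are the rows that depart from the columns.

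Among tested genes outside the family and outside all gene lists used below, the most similar over the 15 libraries were Gm14303 (r = 0.99), Rpl37rt (r = 0.99), Cox7a2l (r = 0.98), Gm12918 (r = 0.98) and Gm9843 (r = 0.98). Gm14303, Gm12918 and Gm9843 are annotated as processed pseudogenes, Rpl37rt as a transcribed one, and Cox7a2l encodes a protein of the mitochondrial respiratory chain. In all, with the genes of those lists included, 322 tested genes outside the family correlated above 0.9 with its mean.

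The aged controls stood above the young controls in most members, and none passed the test. Of the 76 members, 0 had an adjusted p under 0.05 in the comparison of aged with young controls, where 4.42% of all tested genes did, and 0 had an unadjusted p under 0.05 with a higher level, where 9.98% of tested genes did. The median log2 change of the members was 0.34, against -0.02 over all tested genes, and 73 members had a change above 0, as did 47.8% of tested genes. The smallest adjusted p was 0.27, for Rps19, and the smallest unadjusted p was 0.058. The 46 large-subunit genes had a median of 0.32 and the 30 small-subunit genes one of 0.37.

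Rpl36, a large-subunit protein, had the largest change. It was 913, 1337, 1131, 1160.3 and 862.5 FPKM in young controls and 1820, 2028, 1970.0, 1139.7 and 1195 FPKM in aged controls. Aged controls 1 to 3 were above all young controls, and aged controls 4 and 5 were within their range. Its log2 change was 0.57 (SE 0.29, adjusted p = 0.27). Rps27 and Rps19, both small-subunit genes mutated in Diamond-Blackfan anemia, had log2 changes of 0.57 (SE 0.28) and 0.51 (SE 0.25), each with an adjusted p of 0.27. Rps14, the small-subunit gene lost in the 5q deletion of myelodysplastic syndrome, had one of 0.52 (SE 0.29, adjusted p = 0.32), and Rps28 at 0.50 (SE 0.28, adjusted p = 0.31).

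At the other end, 3 members had a mean change below 0: Rpl4 at -0.30 (SE 0.19, adjusted p = 0.36), Rpl5 at -0.10 (SE 0.23, adjusted p = 0.82) and Rpl13a at -0.01 (SE 0.22, adjusted p = 0.99). Rpl21 at 0.09 (SE 0.25) and Rpl24 at 0.12 (SE 0.23) came next. The stalk proteins Rplp0, Rplp1 and Rplp2, which recruit the GTPases of translation, had log2 changes of 0.32, 0.39 and 0.42, and Rpsa, the small-subunit protein also known as the laminin receptor, one of 0.36, none of them past the test.

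The difference was not of the same size in male and female libraries, although a test of that contrast did not pass. Among males alone the median log2 change with age was 0.54, 67 of 76 members had all aged males above all young males (27.9% of tested genes did), and 1 member, Rps19, was called (log2 change 0.77, adjusted p = 0.041), where 9.63% of tested genes were. Among females alone the median was 0.03, and 1 of 76 members had the aged above the young libraries (12.3% of tested genes did). The difference between the sexes in the change with age, tested directly in an analysis added after the data were seen, had a median of 0.52 (male minus female) over the members and 0.03 over all tested genes. For 0 of the 76 did it pass (smallest adjusted p = 0.65), nor for any tested gene, and 0 members had an unadjusted p under 0.05, where 8.80% of tested genes did. Quantile normalization, which forces all libraries to 1 distribution, left a median change with age of 0.13. With columns grouped by the other pairing of names the median was 0.07.

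The knockout-labelled libraries had higher means than the aged controls in all 76 members, and none passed the test. Of the 76, 0 were called, where 1.55% of tested genes were, and 12 had an unadjusted p under 0.05 with a higher level, where 4.64% of tested genes did. The median log2 change was 0.42, against -0.03 over all tested genes, and a change above 0 was found in 45.4% of tested genes. Large-subunit genes had a median of 0.40 and small-subunit genes one of 0.44. For 0 members did the groups fail to overlap, where 0.749% of tested genes had all knockout-labelled libraries above all aged controls. Without replicates 2 and 5 of the knockout-labelled libraries together the median was -0.02, and with columns grouped by the other pairing of names it was -0.01.

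Rpl4, a large-subunit protein that lines the exit tunnel, had the largest change, 0.64 (SE 0.19, adjusted p = 0.10), followed by the small-subunit gene Rps12 at 0.63 (SE 0.30, adjusted p = 0.39), Rpl12 at 0.58 (SE 0.25, adjusted p = 0.31), Rpl5 at 0.58 (SE 0.23, adjusted p = 0.28) and Rpl23 at 0.58 (SE 0.24, adjusted p = 0.31). Rps12 was 227, 261, 266, 157 and 165 FPKM in aged controls and 291, 565, 179, 196 and 628 FPKM in the knockout-labelled libraries, so that replicates 1, 2 and 5 of the latter stood above all aged controls and replicates 3 and 4 did not. Among the smallest changes were those of Rpl27 at 0.14 (SE 0.24), Rpl24 at 0.18 (SE 0.23), Rpl15 at 0.26 (SE 0.19) and Rpl41 at 0.27 (SE 0.26). For the stalk, the log2 change was 0.36 for Rplp0, 0.51 for Rplp1 and 0.41 for Rplp2, and it was 0.42 for Rpsa, none past the test.

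The widest distance lay between the knockout-labelled libraries and the young controls, which differ in both age and label. Here too 0 of 76 members were called, where 1.63% of tested genes were, and 72 had an unadjusted p under 0.05 with a higher level, where 9.17% of tested genes did. The median log2 change was 0.75, against -0.06 over all tested genes, with large-subunit genes at 0.70 and small-subunit genes at 0.78. All 76 changes were above 0, as were 42.7% of those of tested genes. The smallest adjusted p was 0.088, for Rps25. This count was close to the threshold and turned on single libraries: 48 members were called without replicate 3 of the knockout-labelled libraries (4.37% of tested genes), 58 without replicate 4 (5.96%), and 54 among males alone (7.71%), while 0 were called without replicate 2, without replicate 5 or without both. Without both, the median was 0.31. It was 0.37 after quantile normalization and 0.05 with columns grouped by the other pairing of names.

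The largest changes from young controls were those of 4 small-subunit genes, Rps12 at 1.01 (SE 0.30, adjusted p = 0.099), Rps27 at 0.96 (SE 0.28, adjusted p = 0.090), Rps28 at 0.95 (SE 0.28, adjusted p = 0.089) and Rps21 at 0.93 (SE 0.28, adjusted p = 0.10), and of the stalk protein Rplp1 at 0.90 (SE 0.32, adjusted p = 0.14). Rplp1 was 835, 1251, 1092, 1074 and 765 FPKM in young controls and 1756, 3049, 1049, 1089 and 3477 FPKM in the knockout-labelled libraries. Its replicates 3 and 4 lay within the range of the young controls. In 2 members, Rpl3 and Rps25, all 5 knockout-labelled libraries were above all 5 young controls. Of all tested genes 2.18% showed this, so that the 2 members are near the share of all genes. Rps25, which stands near the ribosome's exit site for tRNA, was 167 to 245 FPKM in young controls (median 240.5) and 246 to 630 FPKM in the knockout-labelled libraries, so the groups were separated by a narrow gap.

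The smallest changes from young controls were those of Rpl24 at 0.30 (SE 0.23, adjusted p = 0.43), Rpl4 at 0.34 (SE 0.19, adjusted p = 0.29), Rpl13a at 0.40 (SE 0.22, adjusted p = 0.29), Rpl5 at 0.48 (SE 0.23, adjusted p = 0.24) and Rpl15 at 0.51 (SE 0.19, adjusted p = 0.15). The 3 comparisons share groups of samples, so their values are set side by side and are not independent of one another.

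**Figure D3:**
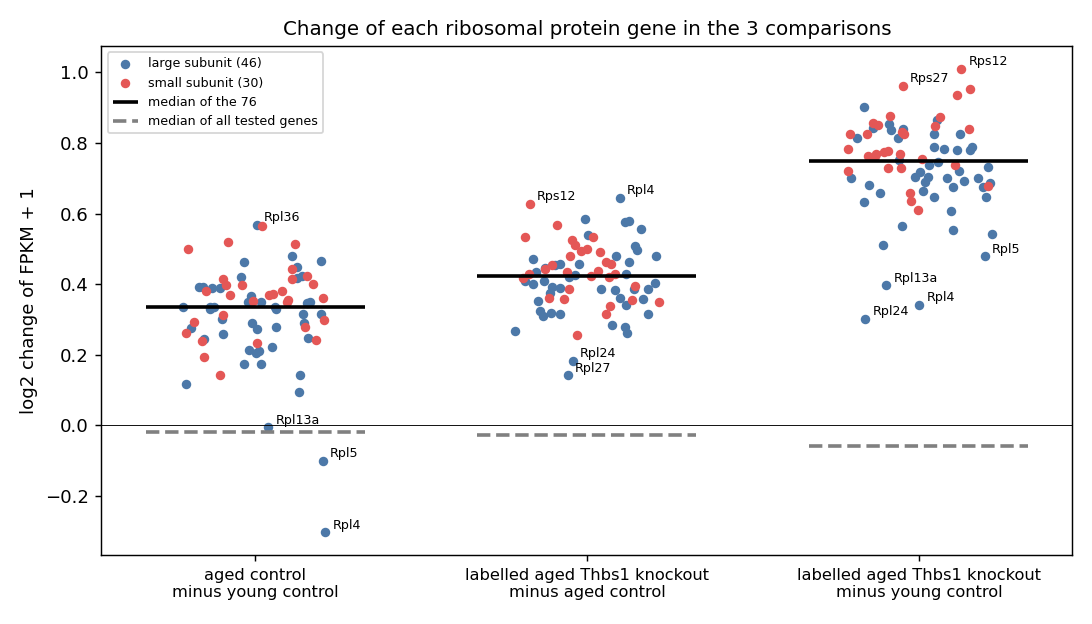
Log2 change of FPKM + 1 of each of the 76 members in the 3 comparisons, with blue for large-subunit and red for small-subunit genes, a black line at the members' median (0.34, 0.42 and 0.75) and a dashed line at the median of all tested genes. The members form 1 band in each comparison, with Rpl4 and Rpl5 below it in aged against young controls and Rpl4 at its top in the knockout-labelled libraries against aged controls.

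Rpl4 departed most from the rest of the family. It was 485, 432, 683, 574 and 543 FPKM in young controls, 395, 350.4, 422, 504 and 531 FPKM in aged controls, and 571, 779, 530.1, 632 and 983 FPKM in the knockout-labelled libraries. The first 3 aged controls, in which Rpl36 was high, were the 3 lowest libraries for Rpl4. The ratio of Rpl4 to Rpl36 FPKM was 0.52 ± 0.12 in young controls, 0.30 ± 0.13 in aged controls and 0.37 ± 0.11 in the knockout-labelled libraries (SD, n = 5 each), and within aged controls it was 0.22, 0.17 and 0.21 in replicates 1 to 3 and 0.44 in both others. A ratio of FPKM shows unequal change of 2 genes and not which of them changed. The pair was chosen after the values were seen, and the ratio was not tested.

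Rpl5 and Rpl11, the partners of the 5S rRNA, also differed from each other. Rpl5 was 72.0, 79.5, 102, 95.7 and 71.7 FPKM in young controls and 72.7, 71.5, 75.4, 83.0 and 86.6 FPKM in aged controls, so that both groups covered much the same range. Rpl11 was 109.6, 153, 142, 141 and 106 FPKM in young controls and 165, 189, 180.3, 128 and 132 FPKM in aged controls, with replicates 1 to 3 of the latter above all young controls. In the knockout-labelled libraries, both were highest in replicates 2 and 5, at 158 and 226 FPKM for Rpl5 and 295 and 348 FPKM for Rpl11. The ratio of Rpl5 to Rpl11 was 0.65 ± 0.08 in young controls, 0.51 ± 0.13 in aged controls and 0.57 ± 0.06 in the knockout-labelled libraries. An antisense gene covers 24.3% of the Rpl5 exons.

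Of the 20 members mutated in Diamond-Blackfan anemia, 0 were called in any comparison (0, 4 and 19 had an unadjusted p under 0.05 with a higher level). Over all tested genes the shares were 4.42, 1.55 and 1.63% called and 9.98, 4.64 and 9.17% at an unadjusted p under 0.05 with a higher level. In the order age, knockout label and knockout label against young controls, their median log2 changes were 0.30, 0.44 and 0.73. Their summed FPKM was 3564 to 5280 in the young group, 4367 to 6910 in the aged group and 4958 to 13554 with the knockout label, with overlap between all 3 groups.

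Among the 15 listed relatives and fusion genes outside the symbol pattern, 11 were tested, and Rps4l was the only one called, 1 of 11 where 4.42% of all tested genes were called with age and 1.63% in the knockout-labelled libraries against young controls. Rps4l (chromosome 6, 148354656 to 148355598 on GRCm38) is an intronless copy of the X-linked small-subunit gene Rps4x, annotated in GENCODE M21 as a transcribed processed pseudogene, and its transcript is 81.4% identical to that of Rps4x over 829 aligned bases. It fell with age: it was 38.4, 43.0, 37.3, 38.6 and 28.4 FPKM in young controls and 19.6, 19.8, 19.1, 16.2 and 16.5 FPKM in aged controls. All 5 aged controls were below all 5 young controls. The log2 change was -0.98 (SE 0.13, adjusted p = 1.07e-04). In the knockout-labelled libraries it was 23.7, 19.7, 18.1, 18.1 and 21.4 FPKM, again below every young control (log2 change -0.84, SE 0.13, adjusted p = 0.0020) and not different from aged controls by the test (log2 change 0.14, SE 0.13, adjusted p = 0.69). Both calls held without each library in turn, but the fall with age had an adjusted p of 0.063 in females alone and turned to a log2 change of 0.12 when the columns were grouped by the other pairing of names.

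Rps4x itself, a member, showed no such fall. It was 429, 577, 585, 562 and 424 FPKM in young controls, 633, 696, 772, 474 and 488 FPKM in aged controls and 833, 1348, 506, 573 and 1490.5 FPKM in the knockout-labelled libraries. Its log2 change with age was 0.24 (SE 0.27, adjusted p = 0.62). The other relatives were not called in any comparison, among them Rps3a1, the small-subunit gene eS1, at 902.5 ± 147, 961 ± 126 and 1476 ± 582 FPKM, Fau, which yields the small-subunit protein eS30, at 299 ± 54.04, 406 ± 94.8 and 537 ± 263 FPKM, and Rps27rt at 12.4 ± 2.40, 21.1 ± 6.54 and 31.3 ± 18.4 FPKM in young controls, aged controls and the knockout-labelled libraries.

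**Figure D4:**
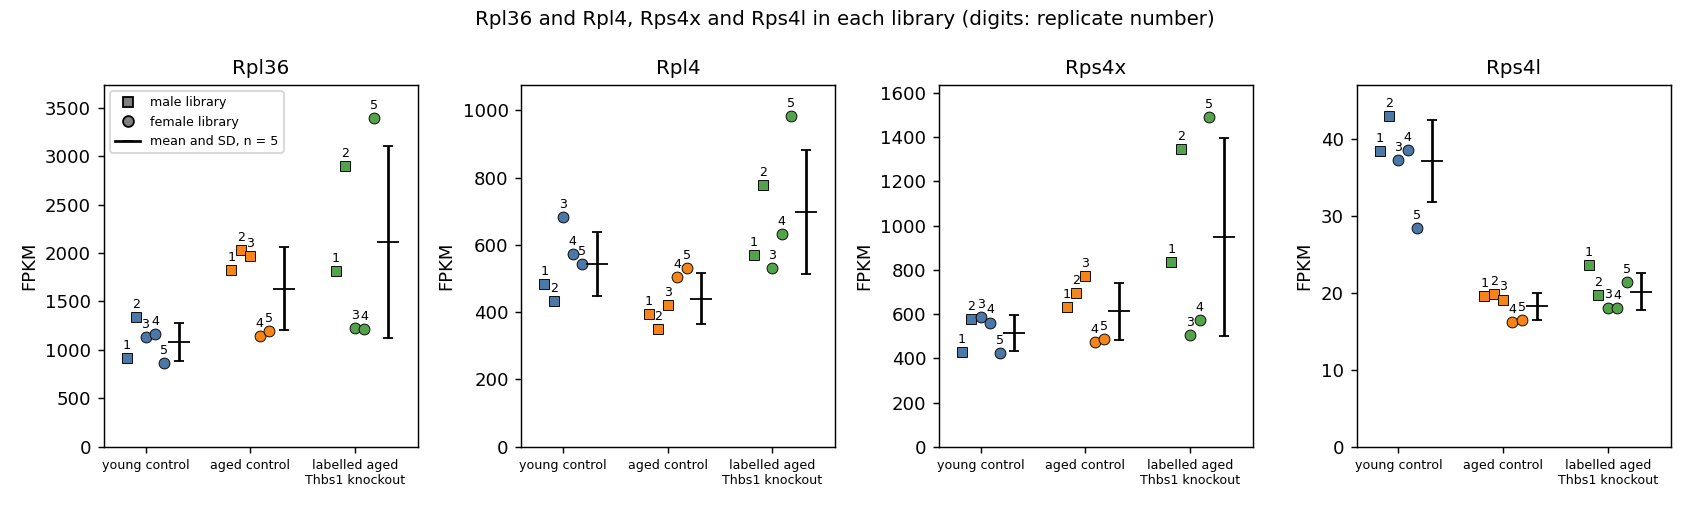
FPKM of Rpl36, Rpl4, Rps4x and Rps4l in each library, by group, with squares for male and circles for female libraries, digits for the replicate number, and the mean and SD of 5 libraries. Aged controls 1 to 3 are high for Rpl36 and low for Rpl4, and for Rps4l all 10 aged libraries lie below the 5 young controls.

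Processed copies of the members had changes of similar size. Of 152 genes in the table named as a ribosomal protein pseudogene with the suffix -ps, a list added after the data were seen, 78 were tested. Their median log2 changes were 0.29 with age, 0.38 with the knockout label and 0.66 against young controls, and 0, 0 and 5 were called, the 5 higher in the knockout-labelled libraries than in young controls (7, 16 and 64 had an unadjusted p under 0.05 with a higher level). Over all tested genes, 1.01% were called higher in that last comparison, and 9.98, 4.64 and 9.17% had an unadjusted p under 0.05 with a higher level, so that the 7 with age are near the share of all genes. The called pseudogenes were Rpl35a-ps2 (log2 change 1.01, adjusted p = 0.012), Rps19-ps6 (0.95, adjusted p = 0.049), Rpl9-ps6 (0.87, adjusted p = 0.041), Rps25-ps1 (0.81, adjusted p = 0.049) and Rpl15-ps3 (0.73, adjusted p = 0.046). Leaving out single libraries ended the calls of Rps19-ps6 and Rpl15-ps3 in 12 of 15 cases each, of Rps25-ps1 in 11 and of Rpl9-ps6 in 9, and that of Rpl35a-ps2 in none. Reads of near-identical copies could be split between a gene and its pseudogenes by the authors' counting, so the values of both are uncertain to that extent.

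The other genes with TOP messages did not all follow the ribosomal proteins. Of 18 translation factors and related genes of this class, median log2 changes were 0.07 with age, 0.35 with the knockout label and 0.39 against young controls. In that order 1, 0 and 0 were called, where 4.42, 1.55 and 1.63% of all tested genes were, and 0, 10 and 8 had an unadjusted p under 0.05 with a higher level, where 9.98, 4.64 and 9.17% of all tested genes did. With age 3 had an unadjusted p under 0.05 with a lower level, where 2264 of 11345 tested genes had one in either direction. Hnrnpa1, an RNA-binding splicing regulator, fell with age, being 108 ± 25.0 FPKM in young and 64.2 ± 22.6 FPKM in aged controls (log2 change -0.77, SE 0.21, adjusted p = 0.040), and was 102 ± 18.7 FPKM in the knockout-labelled libraries. Its 3 lowest libraries were aged controls 1 to 3, at 51.1, 48.2 and 48.6 FPKM, the libraries in which Rpl4 was lowest and the family high. That call was lost without any 1 of 7 libraries (young control replicates 1, 3, 4 or 5 or aged control replicates 1, 2 or 3, adjusted p 0.058 to 0.13). No other gene of the list was called, among them Eef1a1, the elongation factor that brings tRNA to the ribosome, at 1466 ± 166, 1496 ± 92.2 and 2011 ± 471 FPKM in the 3 groups, and Npm1, a nucleolar chaperone, at 89.6 ± 34.2, 57.9 ± 24.6 and 118 ± 29.8 FPKM.

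The host genes of snoRNAs, many of whose transcripts also start with TOP tracts and which carry in their introns the RNAs that guide rRNA modification, had higher means in the knockout-labelled libraries than in aged controls in all 14 genes tested. Of these, 3 rose and 0 fell, with a median log2 change of 0.66, where 0.361% of all tested genes were called higher. An unadjusted p under 0.05 with a higher level was found for 10 of the 14 (4.64% of tested genes), and in 5 the groups did not overlap (0.749% of tested genes). Snhg1 was 8.02 ± 2.58 FPKM in aged controls and rose to 17.4 ± 7.05 (log2 change 1.01, SE 0.23, adjusted p = 0.026), Snhg15 from 41.1 ± 11.7 to 75.6 ± 25.1 (0.86, SE 0.20, adjusted p = 0.036) and Zfas1 from 20.3 ± 1.59 to 37.9 ± 15.8 (0.79, SE 0.19, adjusted p = 0.0499). For Zfas1 the aged controls were 20.6, 22.5, 18.3, 19.4 and 20.9 FPKM and the knockout-labelled libraries 25.5, 43.0, 27.5, 30.1 and 63.4 FPKM, with no overlap. Zfas1 also rose against young controls (log2 change 0.80, SE 0.19, adjusted p = 0.045), a call that leaving out single libraries ended in 11 of 15 cases. With age 0 of the 14 were called (1 had an unadjusted p under 0.05 with a higher and 2 with a lower level), and their median change was 0.01. Of all tested genes 4.42% were called with age. An unadjusted p under 0.05 was found for 9.98% with a higher level and for 2264 of 11345 in either direction.

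These 3 calls were close to the threshold. Without replicates 2 and 5 of the knockout-labelled libraries the log2 changes were 0.76 for Snhg1, 0.66 for Snhg15 and 0.43 for Zfas1, with adjusted p-values of 0.093, 0.11 and 0.11. Leaving out single libraries ended the call of Snhg1 in 4 of 15 cases, of Snhg15 in 10 and of Zfas1 in 12.

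In 4 lists of genes that control or assist the family or serve other steps of translation, no tested gene was called. Of 18 genes of mTORC1 and TOP control, among them Mtor and Larp1, 0 were called in any comparison, with medians of -0.02, -0.11 and -0.08 for age, knockout label and knockout label against young controls (unadjusted p under 0.05 in 2, 1 and 4 genes). The same count of 0 was found for 14 chaperones of ribosomal proteins and genes of the p53 link (medians -0.14, 0.08 and -0.04, unadjusted p under 0.05 in 3, 1 and 3 genes) and for 11 genes of initiation factor 4 (medians -0.13, 0.07 and -0.07, unadjusted p under 0.05 in 1, 2 and 1 genes). The 78 tested genes of the mitochondrial ribosome had medians of 0.10, 0.07 and 0.18, with 0 called (unadjusted p under 0.05 in 5, 2 and 6 genes). Over all tested genes, 4.42, 1.55 and 1.63% were called in the 3 comparisons and 2264, 1469 and 2401 of the 11345 (the last 2 being 12.9 and 21.2%) had an unadjusted p under 0.05. A p that misses the threshold does not show that these genes kept their level.

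Cell cycle genes had lower means in aged than in young controls. Of 17 tested, Cdk1, the kinase of entry into mitosis, was called lower, at 25.1 ± 1.59 FPKM in the young and 16.4 ± 6.97 FPKM in the aged group (log2 change -0.66, adjusted p = 0.043), and the list's median was -0.56. An unadjusted p under 0.05 was found for 11 of the 17, all lower, where 4.42% of all tested genes were called and 2264 of 11345 had an unadjusted p under 0.05 in either direction. Against young controls 3 were lower in the knockout-labelled libraries: the replication clamp Pcna (log2 change -0.85, adjusted p = 0.011), Rrm2, a subunit of ribonucleotide reductase (-0.94, adjusted p = 0.040), and the topoisomerase Top2a (-0.97, adjusted p = 0.045), with a list median of -0.79. All 17 had an unadjusted p under 0.05 and a lower level, where 1.63% of all tested genes were called and 21.2% had an unadjusted p under 0.05 in either direction. In the comparison with aged controls 0 were called, also at an unadjusted p under 0.05, and the median was -0.18. Single libraries decided most of these calls: leaving out 1 of 15 ended that of Cdk1 in 11 cases, of Top2a in 11 and of Rrm2 in 9, and that of Pcna in none.

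**Figure D5:**
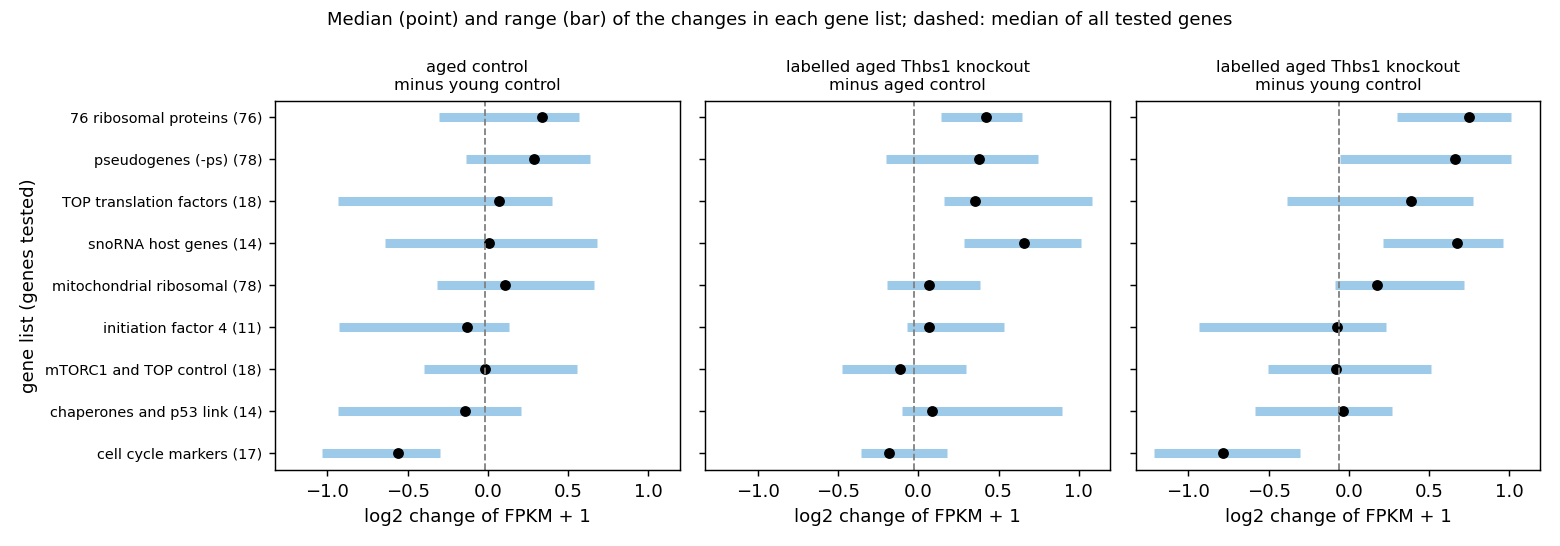
Median (point) and range (bar) of the log2 changes of each gene list in the 3 comparisons, with the number of genes tested and a dashed line at the median of all tested genes. The medians of the ribosomal protein genes and their pseudogenes lie to the right of the dashed line in all 3 panels, and those of cell cycle markers to the left. With age, the bars of the ribosomal protein genes and pseudogenes reach across the line. The whole bar of the snoRNA hosts lies to its right in the 2 panels with the knockout label.

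Some markers of other cell types were near 0 in every library, and others were not. The B cell genes Ms4a1 and Ebf1 were at 0 to 0.21 FPKM and the T cell genes Cd3d and Cd3g at 0 to 0.36 FPKM. Cdh5 of endothelium and Cxcl12 of stroma were at 0 to 0.32 FPKM. Cd79b (29.2 to 63.8 FPKM), Lck (5.54 to 9.25 FPKM), Pecam1 of endothelium (5.62 to 12.3 FPKM) and Lyz2 (355 to 505 FPKM) were present in every library. Kdr of endothelium was at 0.56 to 2.52 FPKM and the T cell gene Trac at 0.05 to 2.3 FPKM. The summed FPKM of the 5 B cell markers in the table was 29.8 to 64.0 over all libraries, of the 4 T cell markers 5.72 to 10.3, of the 6 endothelial and stromal markers 7.09 to 15.1, of the 7 erythroid markers 49.9 to 127 and of the 6 neutrophil and myeloid markers 367 to 518, with overlap between all 3 groups. Of the 6 tested erythroid genes, Hbb-bt was called lower in the knockout-labelled libraries (11.4 ± 5.88 FPKM) than in young controls (23.4 ± 3.22 FPKM, adjusted p = 0.042). In that comparison 1.63% of all tested genes were called. No other erythroid gene was called, and 3 of the 6 had a log2 change above 0. The 4 megakaryocyte markers summed to 345 to 454 FPKM in the young group, 263 to 1891 in the aged group and 153 to 316 with the knockout label. The 1891 FPKM was aged control replicate 5, and the other aged controls were at 263 to 734 FPKM. Of the 4, 1 was called higher and 1 lower with age, and 1 lower in each other comparison. Of all tested genes 4.42, 1.55 and 1.63% were called. Pf4 (means 251, 548 and 136 FPKM) and Gp9 (76.2, 107 and 78.1 FPKM) were not called. Itga2b rose with age from 64.4 ± 4.26 to 138 ± 46.5 FPKM (adjusted p = 0.038) and was 39.1 ± 13.3 FPKM in the knockout-labelled libraries (adjusted p = 0.0010 against aged controls), and Ppbp fell with age from 18.0 ± 6.40 to 6.15 ± 3.92 FPKM (adjusted p = 0.012) and was lower in the knockout-labelled libraries, at 3.97 ± 1.51 FPKM, than in young controls (adjusted p = 0.0046). Of the 11 HSC markers, 3 rose with age and 0 fell, where 4.42% of all tested genes were called, and 7 had a log2 change above 0 and 4 below. An unadjusted p under 0.05 was found for 4 with a higher and 1 with a lower level. Of all tested genes 9.98% had one with a higher level, and 2264 of 11345 had one in either direction. The 3 called were Procr, Ly6a and Hoxb5 (adjusted p = 0.0066, 0.013 and 0.024), and Ly6a was lower in the knockout-labelled libraries than in aged controls (adjusted p = 0.0043). Leaving out 1 of 15 libraries ended the rise of Itga2b with age in 9 cases and that of Hoxb5 in 7. The 11 HSC markers summed to 804 to 855 FPKM in the young group, 964 to 1070 in the aged group and 681 to 873 with the knockout label. Their part in the family's level was not tested.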

How the data were processed

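RNA of sorted HSCs was sequenced from 2 ng of total RNA with SMART-Seq v4, per the labels' protocols. The authors deposited 1 table of FPKM values for 20696 genes and 15 libraries. Per the submitters' processing notes, FastQC 0.11.5, STAR and edgeR were used with GRCm38 (mm10). How reads were counted, and whether by strand, is not given in the sources used here. Gene positions and exon lengths came from GENCODE M21.

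Values were analysed as log2(FPKM + 1), a scale that understates changes of low genes. The 11345 genes averaging 1 FPKM or more were fitted with limma 3.58.1 (R 4.3.3), all 15 libraries in 1 model of 3 groups without covariates, two-sided, with Benjamini-Hochberg adjustment over all tested genes. Unless another setting is named beside it, an adjusted p comes from this fit, and genes under 0.05 were called. Each other setting was fitted and adjusted on its own. Medians and ranges over lists are descriptions. The script was tested on simulated data. Library sizes were recovered from genes of 50 to 250 bases, in which 99.4 to 100.0% of low values were whole reads within 0.1 reads. No 2 libraries were identical. Promoter windows came from RefSeq.

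Members and lists were chosen with earlier results of these data known. Named genes were the stalk, Rpsa, the 5 members highest and lowest in level and in change, and called genes of other lists. Also named were the 5 genes most similar to the family among those outside it and outside the lists. A few genes that this rule picks are not reported here. The alternatives tried were another pseudocount, other filters, 2 normalizations, sex as a covariate or stratum, a replicate block, 2 groups only, libraries left out and the other column pairing. 1 sex interaction and 2 other denominators were added after the data were seen.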

Additional observations from a re-analysis of the deposited data

Results flagged for a closer look

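Of 288 tests for a library far from the rest of its group of 5, 9 pointed to one, where chance alone flags about 1 group in 20. Among the ribosomal protein genes, Rpl13a was 11.71 FPKM in young control replicate 2, against 7.54 to 8.67 in the other young controls, and no other member stood out in this way. Snhg1 was 29.8 FPKM in replicate 5 of the knockout-labelled libraries, against 12.5 to 16.1 in the others of that group, and Snhg15 was 120.26 FPKM in the same library, against 60.1 to 67.3. That library was the highest of all 15 for 70 of the 76 ribosomal protein genes. Among all tested genes it was the highest for 21.53% and the lowest for 21.15%.

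Aged control replicate 5 stood apart in 3 cell cycle genes: Cdk1 at 28.5 FPKM against 11.3 to 16.1 in the other aged controls, Rrm2 at 42.32 FPKM against 15.9 to 18.0, and Top2a at 4.43 FPKM against 2.39 to 2.67. Rrm2 was 27.19 FPKM in young control replicate 3, against 33.5 to 35.4 in the other young controls. Top2a was 11.59 FPKM in young control replicate 1, against 3.48 to 5.33. Rps25-ps1 was 13.3 FPKM in aged control replicate 2, against 7.71 to 8.67 in the other aged controls.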

How the results depend on the processing

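Changing the pseudocount, the filters or the groups in the fit left the count of members called at 0 and the medians within 0.01 of those reported. The settings that moved a count of members called from 0 are given with the share of all tested genes called. For aged against young controls it was males only (1, 9.63%). For the knockout-labelled libraries against aged controls it was quantile normalization (3, 1.64%). For those libraries against young controls they were quantile normalization (15, 2.35%), sex as a covariate (3, 3.78%) and males only (54, 7.71%). The 1 and 3 members called among males with age and with sex as a covariate are not above the share of all genes by much, if at all. Leaving out single libraries gave 0 to 58 in that last comparison, and 0 in each case in the other two. The medians ranged from 0.268 to 0.435 with age, from 0.224 to 0.575 with the knockout label and from 0.548 to 0.901 against young controls. Without replicates 2 and 5 of the knockout-labelled libraries together, the last 2 medians were -0.02 and 0.31. With columns grouped by the other pairing of names, under which the groups differ in sex, they were -0.011 and 0.047, and the median with age was 0.066. The family's median share of all FPKM, 8.05%, became 10.4% of protein-coding FPKM and 5.49% when FPKM was weighted by exon length.

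Of 1803 alternative values for 67 results on single genes, 58 turned round, 228 lost and 34 gained a call. Under the other pairing of names, the log2 change with age became 0.59 for Rpl4, 0.421 for Rpl5, 0.051 for Rpl13a, -0.009 for Rps28, -0.059 for Rps19, -0.099 for Rps14, -0.083 for Rps27, -0.115 for Rpl36, -0.055 for Rplp2, 0.121 for Rps4l, 0.795 for Hnrnpa1, 0.27 for Cdk1, -0.536 for Procr, -0.778 for Ly6a, -0.391 for Hoxb5, -0.93 for Itga2b and 0.668 for Ppbp. The change with the knockout label became -0.005 for Rpl27, -0.037 for Rpl24, -0.014 for Rpl41, -0.039 for Rps12, -0.02 for Rpl4, -0.131 for Rplp0, -0.093 for Rplp1, -0.018 for Rplp2, -0.139 for Rpsa and 0.353 for Ly6a. The change against young controls became -0.047 for Rpl13a, -0.065 for Rplp1, -0.007 for Rps28, -0.05 for Rplp0, -0.073 for Rplp2, -0.034 for Rpsa, -0.005 for Rpl3 and 0.004 for Pcna. Without replicates 2 and 5 of the knockout-labelled libraries, the change with that label became -0.255 for Rpl27, -0.18 for Rpl24, -0.03 for Rpl15, -0.163 for Rpl41, -0.039 for Rplp1 and -0.089 for Rplp2, and against young controls -0.061 for Rpl24 and -0.015 for Rpl13a. Leaving out single libraries, the change of Rpl27 with the knockout label ranged from -0.047 (without knockout-labelled replicate 5) to 0.298. Among females the change with age was -0.116 for Rpl21, -0.153 for Rpl24, -0.079 for Rplp0, -0.043 for Rplp1, -0.042 for Rpsa and -0.108 for Rps4x. Quantile normalization put it at 0.056 for Rpl13a, -0.105 for Rpl21, -0.019 for Rplp0 and -0.031 for Rps4x, and the change of Rpl4 in the knockout-labelled libraries against young controls at -0.118. Rpl13a with age was 0.051 with equal medians, and leaving out single libraries it ranged from -0.069 to 0.086, above 0 without aged control replicate 4 or young control replicate 2. The cause of these changes was not tested.

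With the replicate number as a block, 0 members were called and the medians stayed at 0.336, 0.422 and 0.749. Libraries with the same number correlated in their deviations at -0.455 to 0.527, not all above 0.1, and not every library correlated best with its own number, so the numbers were not taken as pairs. Under the block, Zfas1, Cdk1, Itga2b, Rrm2 and Top2a and the pseudogenes Rps19-ps6, Rpl9-ps6, Rps25-ps1 and Rpl15-ps3 had adjusted p-values of 0.052 to 0.075. The 13 to 60 reads of Rpl24 per library limit what can be said of that gene.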
